A study of Sus scrofa with 56 samples.

Results

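Interferon-stimulated genes are the genes that cells switch on when interferon binds its receptors, and here they were 36 pig genes listed by symbol and looked up by their Ensembl identifiers. Of the 36 symbols, 32 had a row in the files, which held 24358 gene identifiers in all. IFIT3, OAS1 and XAF1 had an identifier in the name table that the files did not use, RTP4 had none there, and these 4 genes were not analysed here. The 32 measured genes passed the filter on low counts in all 15 comparisons, except OASL, which did not pass it in the comparison of stages within the second experimental replicate.

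The RNA came from peripheral blood mononuclear cells (PBMCs, the lymphocytes, monocytes and dendritic cells of the blood) of 28 multiparous sows, with 28 libraries from day 98 of gestation (G98) and 28 from day 11 of lactation (L11). Sows were housed in environment C (conventional) or E (enriched), belonged to the parity group HP (gestation 4 or later) or LP (gestations 2 and 3), and had a dominant, intermediate or subordinate rank. The experiment was run in 2 replicates (R1 and R2), each of which contributed 14 libraries per stage. No strain, age or treatment is given in the labels beyond these factors. At both stages 14 libraries came from C and 14 from E. There were 13 HP and 15 LP libraries at G98, and 14 of each at L11. Dominant, intermediate and subordinate sows gave 9, 11 and 8 libraries at G98 and 11, 9 and 8 at L11. In 26 cases the same sow gave a library at both stages within the same replicate, 14 in R1 and 12 in R2. Of these sows 2, with ear tags T82133 and T82157, gave a second L11 library in R2 and carry the label of an intermediate sow in R1 but of a dominant sow in R2. The other 2 sows, T408 and T91919, had a G98 library only.

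Type I interferons bind the receptor IFNAR1-IFNAR2, whose kinases phosphorylate STAT2. With IRF9 it forms part of a complex called ISGF3, which binds the promoters of the interferon-stimulated genes. The products of those genes sense viral RNA, block viral entry, translation, replication and release, or tag proteins with the ubiquitin-like protein ISG15. Interferon gamma, from T cells and natural killer cells, acts through its own receptor and IRF1 on a partly shared set of genes. In blood these genes are well known to move together, and monocytes and plasmacytoid dendritic cells are among the cells that respond to or produce interferon. The roles named here are known mainly from human and mouse genes.

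The libraries held 18096879 to 25302990 estimated counts, so 1 CPM, the count scaled to a fixed library total, stands for 18.1 to 25.3 counts. The defining markers of PBMCs were present in every library, with the T cell gene CD3E at 409 to 762 CPM, the B cell gene CD79A at 192 to 460 and the monocyte gene CD14 at 14.04 to 429. The summed level of the 9 measured erythroid genes of 11 listed had a median of 14198 CPM at G98 in R1 (854 to 122519) and 2165 at G98 in R2. The medians at L11 were 387 and 1307 CPM. The library codes of G98 and L11 form separate series, so a difference between stages and one between code series cannot be told apart. Levels in bulk RNA also do not separate fewer cells of a type from less RNA per cell, and this holds for every result here. Levels are given as CPM scaled by the trimmed mean of M values (TMM), except between genes, where the authors' TPM values are used because they account for transcript length.

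All 32 genes were detected in each of the 56 libraries. Per length, the most abundant member was IFI44L, an interferon-induced gene on chromosome 6 (134660230 to 134679212, Sscrofa11.1), with a median of 133 TPM at G98 and 153 TPM at L11. IFIT1, which binds viral RNA that lacks the host's cap methylation (chromosome 14, 101237403 to 101249486), followed with 93.3 and 93.4 TPM. The third was IRF9, the DNA-binding part of ISGF3 (chromosome 7, 75133800 to 75139641), with 71.5 TPM at G98 and 81.1 at L11. OAS2, which makes the second messenger that activates RNase L (chromosome 14, 38827667 to 38847697), stood at 63.5 and 75.9 TPM, and STAT2 at 63.2 and 59.7. At the other end, USP18, the protease that removes ISG15 from proteins and damps receptor signalling, had medians of 10.2 and 9.28 TPM. OASL, a relative of the OAS enzymes without their catalytic activity, was lowest with 0.913 and 0.645 TPM. Apart from OASL at L11, whose highest library (2.06 TPM) lay below the lowest of every other member, the TPM ranges of neighbouring genes in this order overlapped. Several spans overlap other annotated genes, namely IFIT1 and IFIT2 with LIPA, STAT2 with IL23A, PARP9 with DTX3L, UBA7 with FAM212A and TRAIP, and ISG15 with an uncharacterised locus. The kit keeps strand, but no source used here gives the strand setting of the counting, so the levels of these genes are uncertain to that extent.

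The members differed widely between sows of the same stage and replicate. The SD of log2(CPM + 1) within stage and replicate, pooled over those 4 groups, had a median of 0.56 over the 32 members and of 0.236 over the 12349 genes tested for stage. It was above 0.5 in 19 of the 32 members (59.4%) and in 7.02% of all tested genes. It was under 0.25 in 4 members (12.5%) and in 55.8% of all tested genes. IFI6, a mitochondrial and endoplasmic reticulum protein that limits cell death and viral replication (chromosome 6, 84852782 to 84858072), had the largest SD, 1.06. Its levels ran from 13.5 to 526 CPM, a 38.9-fold range, and outside R2 at L11 the highest was 106 CPM. OASL had a wider fold range, 61.5, from 0.0442 to 2.72 CPM, where the added 1 holds its SD down to 0.388. MX2 and MX1, dynamin-like GTPases that trap viral nucleocapsids and lie side by side on chromosome 13 (204798633 to 204821612 and 204843049 to 204868927), had SDs of 1.03 and 0.90. OAS2 had 0.98, and HERC5, the ligase that attaches ISG15, had 0.83. For RSAD2, or viperin, which makes a chain-terminating nucleotide, the SD was 0.72, and for ISG15 itself (chromosome 6, 63363201 to 63364211) it was 0.68.

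The median spread differed between roles, though the ranges of most roles overlapped. The SD ran from 0.25 to 0.83 in the ISG15 system and from 0.15 to 0.59 in the transcription factors. The median SD was 0.62 over the 6 genes of the ISG15 system and ubiquitin ligases, 0.59 over the 12 antiviral effectors, 0.48 over the 6 RNA sensors and double-stranded RNA enzymes, 0.31 over PARP9, DTX3L and PARP14, and 0.19 over the 3 transcription factors IRF7, IRF9 and STAT2. The steadiest members were IRF9 with an SD of 0.15, IFI35, a binding partner of NMI, with 0.19, STAT2 with 0.19 and TRIM25, the ubiquitin ligase of the RIG-I pathway, with 0.25. IRF7, unlike the other transcription factors, had an SD of 0.59, above the members' median of 0.56. These SDs describe these 56 libraries and were not tested against other gene groups.

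**Figure D1:**
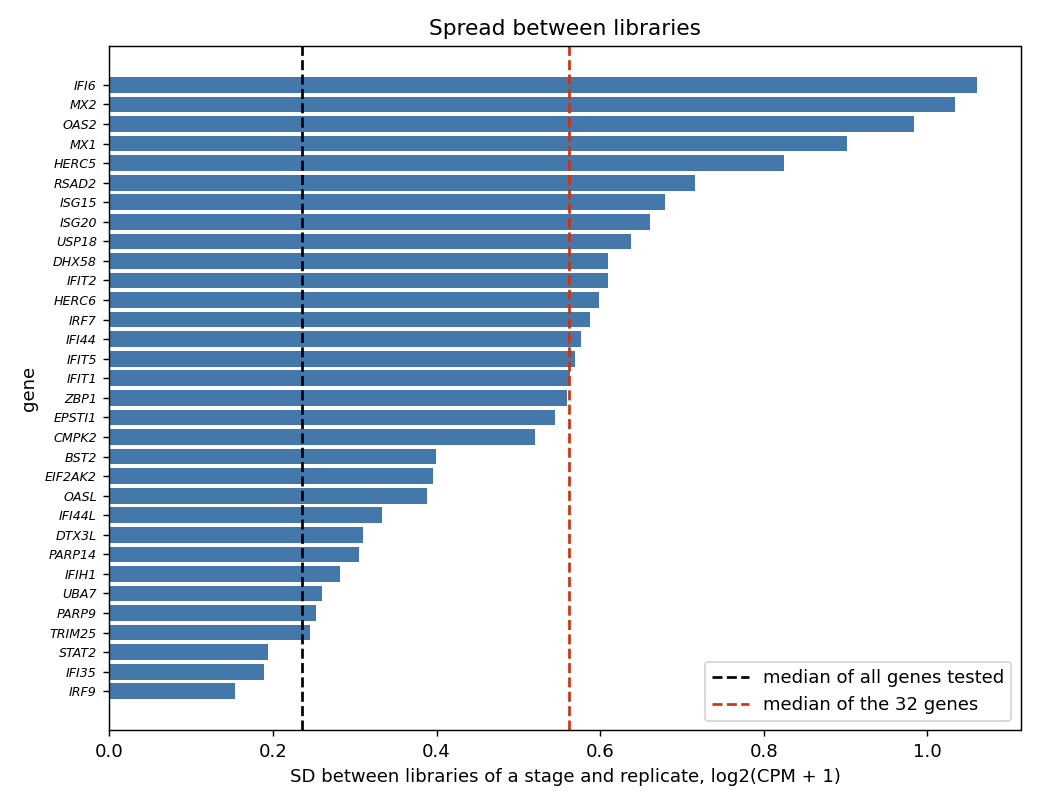
Standard deviation of log2(CPM + 1) within stage and replicate (bars, horizontal axis) for the 32 interferon-stimulated genes, ordered by size, with dashed lines at the members' median of 0.56 and at the median of all tested genes of 0.236. IFI6, MX2 and OAS2 have the longest bars and IRF9, IFI35 and STAT2 the shortest.

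In part of the libraries most members were high or low together. In each library the number of members above their own median for that stage and replicate ran from 1 to 32 of 32. The share of all tested genes above theirs stayed between 47.2% and 53.7%. The medians and the scaling of the libraries hold that share in a narrow range, so it does not measure scatter. No other set of 32 genes was compared. At least 27 members were above the median in 5 libraries of R1 and 4 of R2 at G98, and in 2 of R1 and 4 of R2 at L11. At most 5 were above it in 4, 3, 2 and 2 libraries of the same groups. The 4 high libraries of R2 at L11 were those of sows T91675 and T619 with all 32 members, T82133 with 31 and T93013 with 30. The L11 library of T91533 in R2 had 1 member above the median.

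**Figure D2:**
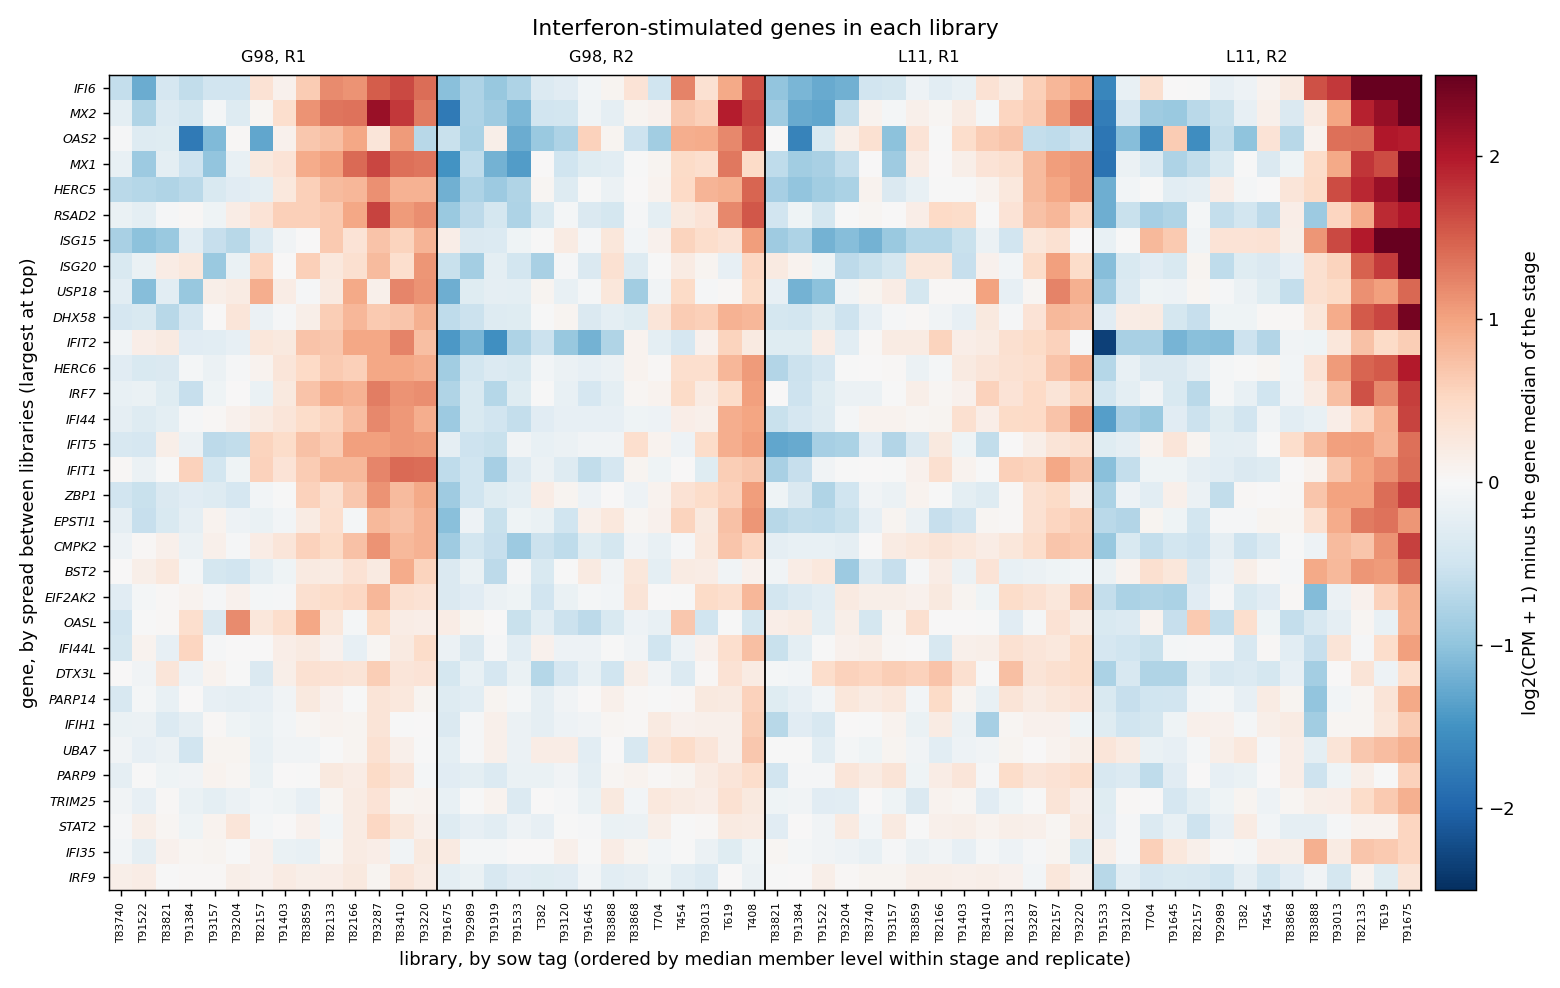
Level of each of the 32 genes (rows, ordered by spread between libraries, largest at the top) in each of the 56 libraries (columns). Columns are grouped by stage and replicate and ordered by the library's median member level. Colours show log2(CPM + 1) minus the gene's median over its stage, limited to 2.5 in either direction. Some columns are high or low for most genes, and the darkest column is the L11 library of sow T91675 in R2. Other columns are mixed, such as the L11 library of T83888 in R2, with 18 of 32 genes above the stage median.

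Summed over the 32 members, the level ran from 1373 to 2769 CPM (median 1644) in R1 at G98 and from 1083 to 2803 (median 1476) in R2 at G98. At L11 it ran from 1273 to 2334 (median 1801) in R1 and from 1036 to 5245 (median 1593) in R2. The medians thus lay within 1476 to 1801 CPM, and the top of the range in R2 at L11 came from 3 libraries, T91675 with 5245, T619 with 4240 and T82133 with 3571.

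Sow T91675, housed in E and of intermediate rank, had the lowest sum of all 28 libraries at G98, 1083 CPM, and the highest at L11, 5245 CPM. All 32 members were higher in its L11 library, by a median of 2.36 on the log2(CPM + 1) scale. IFI6 stood at 15.7 CPM at G98 and 526 at L11, MX1 at 20.3 and 398, and MX2 at 12.2 and 254. Effectors and regulators were all higher at L11 in this sow, but by unlike amounts. ISG15 went from 26.6 to 197 CPM, HERC5 from 13.6 to 213 and IRF7, the factor that amplifies interferon production, from 19.3 to 128. OAS2 went from 114 to 816 CPM, whereas IRF9 (60.7 and 104) and STAT2 (181 and 315) differed less. This library was the highest of the 56 for 24 of the 32 members. These are values of 1 animal with 1 library at each stage, and no test was made.

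Genes of the pathway outside the list were high in the same library. Of the 26 tested genes in a second list of interferon-induced genes, 25 were above their median for that stage and replicate there, as were 14 of 15 genes that respond mainly to interferon gamma. CXCL10, a chemokine that draws activated T cells, stood at 45.0 CPM against a median of 2.10 in R2 at L11. The RNA sensor gene RIGI was at 51.2 CPM against 14.9 and DDX60 at 48.9 against 12.2. The summed level of the 8 measured monocyte markers of 11 listed was 1722 CPM in this sow at G98 and 3989 at L11, where R2 ranged from 1611 to 9046 with a median of 2129. The sums of the granulocyte list were 198 and 423 CPM, of the plasmacytoid dendritic cell list (7 of 11 markers measured) 267 and 269, of the T cell list 3496 and 2866, and of the erythroid list 1386 and 1205. The part of these cell types in the levels of T91675 was not tested. Among the 6 measured granulocyte markers of 8 listed, MPO and ELANE were at or near 0 throughout, whereas CSF3R ran from 92.1 to 510 CPM, S100A12 from 8.83 to 1294 and LTF up to 170.

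Sow T619, housed in C and subordinate, already stood high at G98 with a sum of 2497 CPM, and at L11 had 4240. The difference was uneven among the members. ISG15 went from 30.6 to 190 CPM, IFI6 from 65.2 to 467 and OAS2 from 389 to 836, while IRF9 was at 72.5 and 66.5 and STAT2 at 264 and 230. Its monocyte list summed to 1810 and 2181 CPM. SIGLEC1, an interferon-induced lectin of monocytes and macrophages, was higher here than in any other library of R2 at L11, at 86.6 CPM against a median of 10.8.

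Sow T82133 gave 3 libraries. ISG15 was at 37.9 CPM at G98 in R1, 19.7 at L11 in R1 and 113 at L11 in R2, and IFI6 followed with 76.4, 52.5 and 336. Its monocyte list in the last library summed to 2973 CPM. In sow T82157, the other animal with 3 libraries, IFI6 was at 42.9 CPM at G98, 81.4 at L11 in R1 and 45.0 at L11 in R2. All 32 members were higher at L11 than at G98 in its R1 pair, by a median of 0.50. Movement in the other direction also occurred: 29 of 32 members were lower at L11 in T83410 (median -0.50) and 29 in T93287 (median -0.41).

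**Figure D3:**
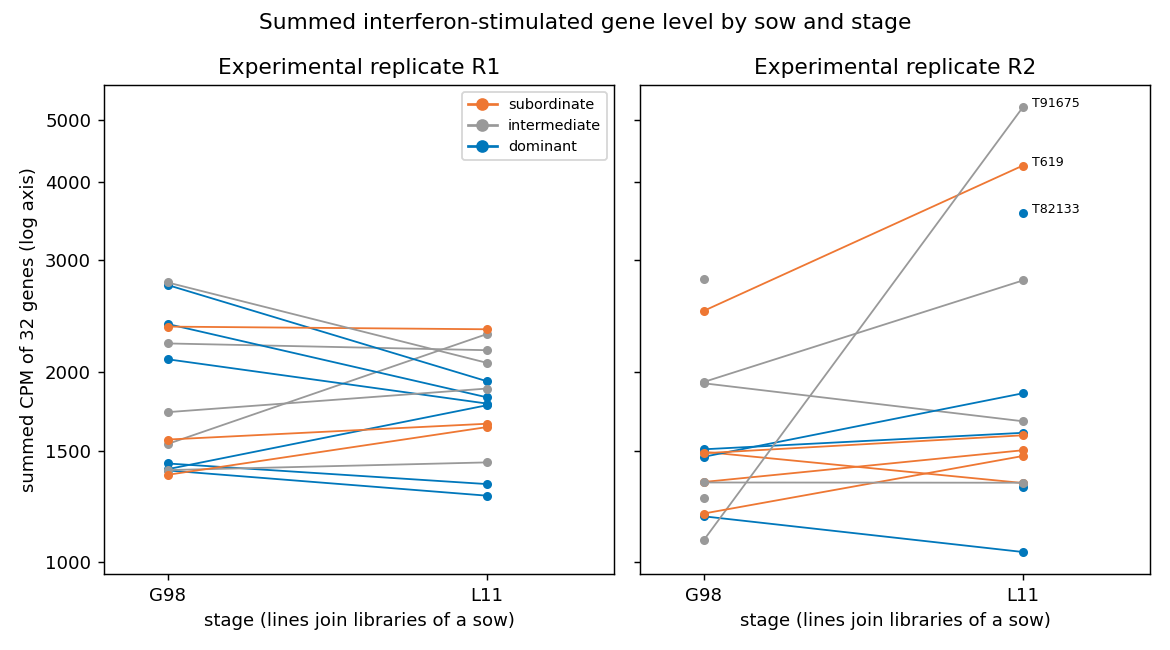
Summed CPM of the 32 genes at G98 and at L11 (log axis) for each sow, with R1 and R2 in separate panels, lines joining the 2 libraries of a sow, single points for sows with 1 library in that replicate, and colours for rank. Apart from T91675, T619 and T82133 at L11 in R2 all points lie within 1036 to 2803 CPM, and T91675 runs from the lowest point at G98, 1083, to the highest at L11, 5245.

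A sow's position was partly kept between stages. For a member, the number of the 26 sows on the same side of the median for their replicate at both stages had a median of 17.5 over the members and of 15 over all tested genes. It was 22 for EPSTI1, 21 for OAS2, 20 for IFI6, MX1, ISG15 and IFIT2, and lowest, at 13, for IFI35. These counts are descriptions of the same animals and have no test.

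Stage was compared within the 26 sow pairs, and levels beside these tests are those of the paired libraries. In edgeR's quasi-likelihood test, 5 members were called higher and 2 lower at L11 at an adjusted p under 0.05, which is 21.9% of the 32, where 56.6% of all tested genes were called, 28.4% higher and 28.2% lower. The members' median log2 change was 0.13, against 0.0037 over all tested genes. The called members came from several roles. Of the 6 genes of the ISG15 system and ubiquitin ligases, 1 was called, TRIM25, which was lower.

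IFI44L had 69.5, 99.1 and 143 CPM as lowest, median and highest level at G98 and 87.8, 132 and 267 at L11. The ranges overlapped, but 23 of 26 sows were higher at L11, and the gene rose by 0.40 on the log2 scale (SE 0.07, adjusted p = 3.36e-05). IFI35 (chromosome 12, 19879386 to 19890330) had 33.3, 41.6 and 49.3 CPM and then 36.2, 46.0 and 87.9. It too was higher in 23 of 26 sows, with a log2 change of 0.27 (SE 0.06, adjusted p = 0.000787). EPSTI1 (chromosome 11, 24116991 to 24216219) had 17.2, 36.4 and 67.7 CPM at G98 and 28.5, 47.9 and 124 at L11. It was higher in 19 of 26 sows and rose by 0.33 (SE 0.11, adjusted p = 0.00938).

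OAS2 ranged from 48.6 to 389 CPM at G98, with a median of 150.5, and from 58.3 to 836 at L11, with a median of 207. Although the stages overlapped widely, 19 of 26 sows were higher, and the log2 change was 0.33 (SE 0.12, adjusted p = 0.0242). IRF9, much steadier, had 56.8, 73.1 and 89.2 CPM and then 50.7, 82.8 and 104, and rose by 0.13 (SE 0.04, adjusted p = 0.0104) with 20 of 26 sows higher. TRIM25 (chromosome 12, 33184039 to 33212440) had 30.5, 38.5 and 51.4 CPM at G98 and 23.8, 32.4 and 60.7 at L11. Only 3 of 26 sows were higher at L11, and its log2 change was -0.27 (SE 0.06, adjusted p = 0.000164). DTX3L, the ubiquitin ligase that pairs with PARP9 (chromosome 13, 137950266 to 137961381), had 8.70, 14.9 and 23.4 CPM and then 5.88, 11.3 and 19.7. It was higher at L11 in 9 of 26 sows, with a log2 change of -0.34 (SE 0.09, adjusted p = 0.00240).

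The count of lower members depended on T91675. Without this sow 5 members were called higher and 8 lower, and the members' median log2 change was 0.06. The added genes were MX2 (log2 change -0.52, adjusted p = 0.00125), OASL (-0.54), RSAD2 (-0.22), IFI44 (-0.21), IFIH1, the RNA sensor also called MDA5 (-0.15), and STAT2 (-0.12). Without T91675 and T619, an alternative chosen after the data were seen, the counts were 5 and 10 and the median was 0.015. Both sows were left out as highest for the members at L11, so a move towards lower follows in part from the choice. Over all genes, 6793 to 7013 were called in the fits that left out a sow, against 6990 in the main fit. When the terms for sow and replicate were both dropped, OAS2 (adjusted p = 0.126), IRF9 (0.0831) and DTX3L (0.05003) were no longer called. The unpaired fit that kept replicate as a term again gave 5 higher and 2 lower.

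The stage difference was then fitted in each experimental replicate. In R1, with 14 pairs, 2 members were called higher and 5 lower, where 43% of all tested genes were called (21.1% higher, 21.9% lower), and the members' median log2 change was -0.09 against -0.008 over all genes. IRF9 was higher at L11 in 14 of 14 sows, with 71.9, 79.6 and 89.2 CPM at G98 and 79.0, 89.4 and 102 at L11 (log2 change 0.15, SE 0.03, adjusted p = 0.00164). IFI44L was higher in 13 of 14, with 72.6, 104 and 143 CPM and then 88.4, 142 and 181 (0.38, SE 0.08, adjusted p = 0.000943). The L11 ranges of both genes lay higher but overlapped with those at G98.

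TRIM25 fell in R1 by 0.32 (SE 0.05, adjusted p = 0.000170), from 33.0, 37.1 and 49.9 CPM to 25.1, 30.3 and 40.7, and 1 of 14 sows was higher. MX2 fell by 0.70 (SE 0.18, adjusted p = 0.00496), from 25.7, 52.2 and 199 CPM to 15.4, 41.6 and 107, with 2 of 14 sows higher. ZBP1, a sensor of left-handed nucleic acids that can start cell death, had 6.34, 9.55 and 22.8 CPM and then 5.04, 8.45 and 13.0 (-0.39, SE 0.13, adjusted p = 0.0192). For all 3 several G98 libraries, not only the highest, lay above every L11 library, and the rest of the ranges overlapped.

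OASL, near the low end of measurement, had 0.180, 0.935 and 2.72 CPM at G98 and 0.170, 0.611 and 1.07 at L11 in R1 (log2 change -0.64, SE 0.21, adjusted p = 0.0209). RSAD2 had 19.9, 33.5 and 79.6 CPM and then 17.4, 26.7 and 44.7 (-0.27, SE 0.10, adjusted p = 0.0422). Neither call was firm: RSAD2 was lost in 10 of the 14 fits that left out a sow (adjusted p up to 0.0863), and OASL was lost without T93204 (0.0555).

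In R2, with 12 pairs, 8 of 31 members were called higher and 1 lower, where 48.3% of all tested genes were called (24.9% higher, 23.4% lower), and the members' median log2 change was 0.41 against 0.005 over all genes. ISG15 was higher at L11 in 12 of 12 sows, with 18.2, 26.2 and 35.2 CPM at G98 and 24.1, 40.2 and 197 at L11. Its log2 change was 1.01 (SE 0.24, adjusted p = 0.00252). IFI6 had 15.7, 29.5 and 79.5 CPM and then 14.1, 50.9 and 526, was higher in 10 of 12 sows, and changed by 1.19 (SE 0.39, adjusted p = 0.0192). The upper ends of both genes at L11 were the libraries of T91675 and T619.

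IFIT5, an RNA-binding relative of IFIT1, was higher in 12 of 12 sows, with 9.37, 12.9 and 26.9 CPM at G98 and 15.4, 22.2 and 51.3 at L11 (0.78, SE 0.14, adjusted p = 0.000352). IFI35 was also higher in 12 of 12, with 33.3, 41.3 and 48.1 CPM and then 45.8, 53.7 and 87.9 (0.50, SE 0.09, adjusted p = 0.000451), so that the stages overlapped only between 45.8 and 48.1 CPM. BST2, or tetherin, which holds budding virus particles at the cell surface (chromosome 2, 60305306 to 60308295), had 11.101, 14.1 and 18.05 CPM and then 14.3, 19.0 and 44.3 (0.61, SE 0.17, adjusted p = 0.00796). It was higher in 9 of 12 sows.

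EPSTI1 in R2 had 17.2, 38.3 and 61.0 CPM at G98 and 28.5, 50.01 and 124 at L11 (0.58, SE 0.18, adjusted p = 0.0152). IFI44L had 69.5, 90.7 and 132 CPM and then 87.8, 117 and 267 (0.42, SE 0.12, adjusted p = 0.00861), and each of these was higher in 10 of 12 sows. IFIT1 had 60.5, 75.8 and 145 CPM and then 52.3, 101 and 287 (0.48, SE 0.18, adjusted p = 0.0400), and its call was lost in 7 of the 12 fits that left out a sow. DTX3L fell in R2, from 8.70, 13.0 and 19.5 CPM to 5.88, 8.34 and 15.5, by 0.58 (SE 0.13, adjusted p = 0.00191), with 2 of 12 sows higher.

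Without T91675, 8 members were called higher and 5 lower in R2, and the members' median was 0.20. IFIT1 was lost (adjusted p = 0.0584) and HERC5 gained (0.42), and EIF2AK2, the kinase PKR that stops translation, PARP9 (-0.28), PARP14 (-0.39) and TRIM25 (-0.32) joined DTX3L among the lower ones. ISG15 then changed by 0.83 and IFI6 by 0.92. Without T619 as well, 7 were higher and 5 lower, the median was 0.10, and the changes of ISG15 and IFI6 were 0.67 and 0.73. Over all genes, 5401 to 5899 were called in the R2 fits that left out a sow, against 5938 in the main fit.

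The difference between the replicates' stage changes was tested directly. For 5 members the L11 minus G98 change was called higher in R2 than in R1, and for 1 lower, where 20.1% of all tested genes were called, 10.8% higher and 9.38% lower. The members' median difference was 0.43, against -0.0009 over all genes, and 27 of 32 were positive. ISG15 differed by 1.25 (SE 0.27, adjusted p = 0.00147), IFI6 by 1.27 (SE 0.41, adjusted p = 0.0275), IFIT5 by 1.02 (SE 0.20, adjusted p = 0.000761), BST2 by 0.71 (SE 0.18, adjusted p = 0.00688) and IFI35 by 0.42 (SE 0.10, adjusted p = 0.00476). DTX3L differed by -0.46 (SE 0.16, adjusted p = 0.0456). The transcription factors IRF7, IRF9 and STAT2 were not called here.

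Without T91675 the median difference was 0.25, with 5 higher and 2 lower, and PARP9 was the addition. ISG15 then differed by 1.08 and IFI6 by 1.00. Without T619 as well the median was 0.18 and the counts were again 5 and 2, with ISG15 at 0.91 and IFI6 at 0.81. Over all genes, 2178 to 2814 were called in the fits that left out a sow, against 2564 in the main fit. The call of DTX3L was lost in 19 of the 26 fits that left out a sow, with adjusted p up to 0.0859. That of IFI6 was lost without T619 (0.0556), T83888 (0.0504) or T93013 (0.0510).

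**Figure D4:**
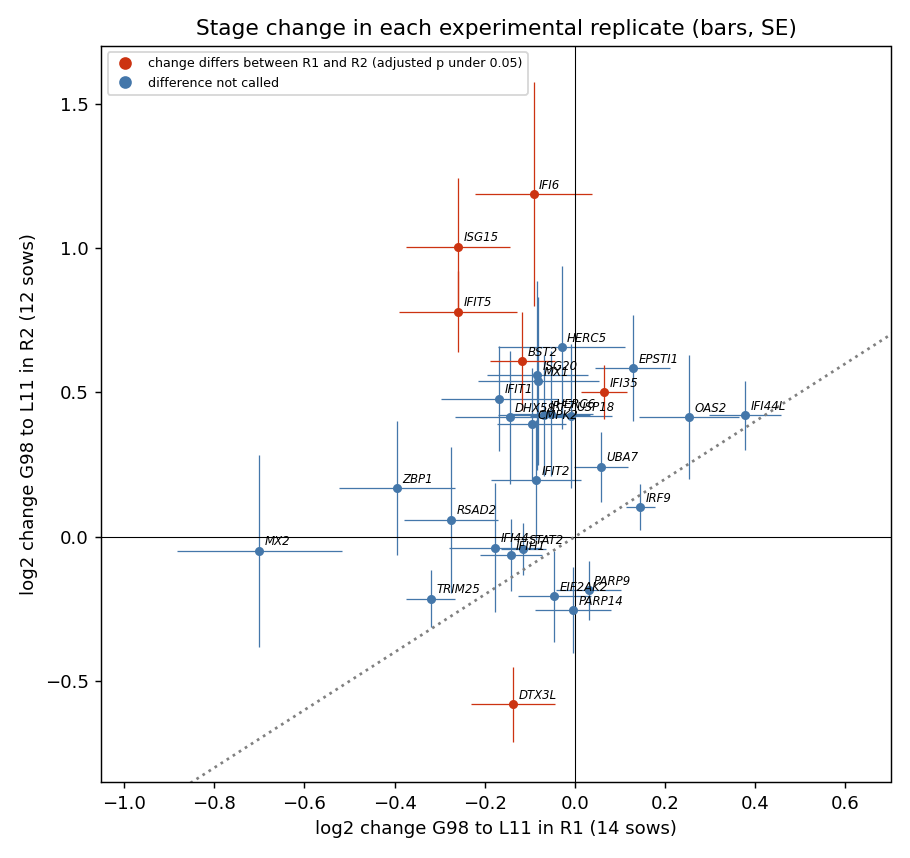
Log2 change from G98 to L11 in R1 (horizontal axis) and in R2 (vertical axis) for the 31 genes tested in both, with error bars of 1 SE, a diagonal of equal change, and red points where the difference between the replicates was called. ISG15, IFI6, IFIT5, BST2 and IFI35 lie above the diagonal and DTX3L below it.

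Replicates were also compared within each stage. At G98 no member was higher and 8 were lower in R2, where 40.7% of all tested genes were called (19.3% higher, 21.3% lower), and the members' median log2 difference was -0.27 against 0.001 over all genes. IRF9 had 71.9, 79.6 and 89.2 CPM in R1 and 54.7, 60.5 and 72.5 in R2, so only the edges of the ranges overlapped (log2 difference -0.36, SE 0.04, adjusted p = 3.59e-08). IFIT2 had 57.6, 84.3 and 167 CPM against 23.5, 44.7 and 104 (-0.95, SE 0.22, adjusted p = 0.00117), and IFIT1 68.5, 142 and 255 against 52.5, 75.8 and 150 (-0.78, SE 0.20, adjusted p = 0.00234). Both sit in the IFIT cluster of chromosome 14.

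The other 5 lower members at G98 were CMPK2, a mitochondrial nucleotide kinase next to RSAD2 (-0.66, adjusted p = 0.00243), DTX3L (-0.38, 0.00713), STAT2 (-0.19, 0.0126), OASL (-1.16, 0.0206) and IFI44 (-0.51, 0.0417). ISG15, IFI6, IFIT5 and BST2, whose stage change differed between the replicates, were not among them. The call of IFI44 was lost without T93220 (adjusted p = 0.0750), without covariates and with no filter on low counts.

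At L11, 7 members were higher and 3 lower in R2, where 43.3% of all tested genes were called (22% higher, 21.3% lower), and the members' median difference was 0.23 against 0.015. Sows T82133 and T82157 had a library in both replicates here, and the fit took these as separate animals. Without their R2 libraries the members' median difference was 0.21. ISG15 had 11.6, 16.5 and 36.5 CPM in R1 and 24.1, 40.2 and 197 in R2 (1.78, SE 0.33, adjusted p = 7.19e-05). IFI6 had 18.3, 38.6 and 91.3 CPM against 14.1, 50.9 and 526 (1.65, SE 0.48, adjusted p = 0.00599). For ISG15 the R2 median lay above every R1 library, while for IFI6 it lay within the R1 range.

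IFI35 had 36.2, 44.3 and 49.3 CPM in R1 and 45.8, 53.7 and 87.9 in R2 (0.42, adjusted p = 6.97e-05). IFIT5 (0.74, adjusted p = 0.00561), BST2 (0.59, 0.00709), ZBP1 (0.58, 0.0474) and UBA7, the enzyme that activates ISG15 (0.30, 0.0197), were also higher. DTX3L (-0.75, adjusted p = 5.35e-05), IRF9 (-0.38, 8.62e-05) and PARP9 (-0.29, 0.0332) were lower. IRF9 and DTX3L were thus lower in R2 at both stages.

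Of these calls, 2 of the higher ones were lost without T91675, namely IFI6 (1.07, adjusted p = 0.0693) and ZBP1, which left 5 higher and 7 lower. The R2 libraries of T91675, T619 and T82133 were left out after the data were seen, as the 3 of highest median member level at L11. ISG15 (1.06) and IFI35 (0.35) were then the only higher members, 10 were lower, and the members' median was -0.27. No R1 library was left out, so a move of R2 towards lower levels follows in part from the choice. Over all genes, the alternative fits of this comparison called 4871 to 6185. Without T83888, whose library had a high level of the macrophage gene C1QA and the highest monocyte sum, 9046 CPM, 8 were higher and 2 lower, in a fit also chosen after the data were seen. DHX58 and HERC5 were gained there, and ZBP1 and PARP9 were lost.

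Housing, parity and rank were the factors the study set out to compare. In edgeR's quasi-likelihood test no member was called for any of the 3 at either stage, nor for the difference of the stage change between C and E, HP and LP, or dominant and subordinate sows. DESeq2 called 0 members in all 9 comparisons too. Of all tested genes, the share called was 0.00815% for housing, 1.47% for parity and 0% for rank at G98. At L11 it was 0%, 0.179% and 0%, and it was 0% for each of the 3 stage differences. At an unadjusted p under 0.05 there were 2 members for housing at G98, 1 for parity at G98, 1 for the stage difference by rank, and 0 in the other 6 comparisons. The corresponding shares of all tested genes were 5.24%, 16.8% and 14.4% for housing, parity and rank at G98, 5.98%, 7.64% and 9.44% at L11, and 7.01%, 2.11% and 2.88% for the stage differences.

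For housing, OAS2 had the lowest p at G98, with 78.1, 217 and 512 CPM in C and 48.6, 115 and 352 in E. The E minus C difference was -0.70 on the log2 scale (SE 0.30, adjusted p = 0.908). At L11 it had 67.6, 246 and 836 CPM in C and 58.3, 136 and 816 in E, a difference of -0.73 (SE 0.38, adjusted p = 0.832). The E median lay below the C median in each replicate as well. At G98 the medians were 182 in C and 135 in E in R1, and 253 and 114 in R2. At L11 they were 229 and 142 in R1, and 324 and 102 in R2. The ranges overlapped in all of these groups, and each fit within a replicate missed the threshold (adjusted p 0.369 to 0.764). IFI35 at G98 had 33.3, 39.7 and 47.5 CPM in C and 38.8, 43.3 and 49.3 in E (0.11, SE 0.05, adjusted p = 0.949), and at L11 its difference was -0.20 (adjusted p = 0.841). The third member by p was IFIH1 at G98 (-0.14, adjusted p = 0.987) and OASL at L11 (0.58, adjusted p = 0.873).

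For parity, UBA7 had the lowest p at G98, with 39.6, 49.6 and 57.8 CPM in HP and 37.8, 57.6 and 85.1 in LP (HP minus LP -0.24, SE 0.09, adjusted p = 0.173). DHX58, the RNA sensor LGP2, had 8.85, 11.8 and 27.3 CPM in HP and 9.92, 18.4 and 28.2 in LP (-0.32, adjusted p = 0.423), and IFI44L differed by -0.20 (adjusted p = 0.356). Within R2 alone, 2 members were called lower in HP sows at G98, UBA7 (-0.45, adjusted p = 0.0356) and DHX58 (-0.77, adjusted p = 0.0363). Of all genes 817 were called there, where the main fit tested 12273. The members' share was near that of all genes and is no result about the members. In R2 DHX58 had 9.19, 11.7 and 12.4 CPM in the 6 HP libraries and 9.92, 20.6 and 27.9 in the 8 LP libraries. The members' median HP minus LP difference at G98 was -0.41 within R2 and 0.06 within R1. At L11 ISG20, an RNA exonuclease, had 1.60, 5.11 and 33.2 CPM in HP and 2.47, 3.43 and 17.2 in LP (0.56, adjusted p = 0.824). IFI35 (0.15, adjusted p = 0.837) and OAS2 (0.49, adjusted p = 0.851) followed.

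For rank, BST2 had 13.9, 17.4 and 28.9 CPM in dominant and 10.2, 12.7 and 22.2 in subordinate sows at G98 (dominant minus subordinate 0.34, SE 0.17, adjusted p = 0.360). OAS2 (0.56, adjusted p = 0.5261) and IFIT2 (0.50, adjusted p = 0.541) came next. At L11 STAT2 had 150, 205 and 235 CPM in dominant and 171, 239 and 253 in subordinate sows (-0.16, SE 0.10, adjusted p = 0.677), followed by IFI44L (-0.25, adjusted p = 0.685) and IFIH1 (-0.19, adjusted p = 0.789). Rank and parity were closely tied. Of the 9 dominant libraries at G98, 8 were HP, and of the 8 subordinate ones 7 were LP. At L11 these numbers were 10 of 11 and 7 of 8.

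The differences of the stage change between the groups had adjusted p of 0.699 or more for every member. By housing the members of smallest p were IFI35 (-0.25, adjusted p = 0.699), IFIT1 (-0.48, adjusted p = 0.699) and UBA7 (0.19, adjusted p = 0.742). By parity they were IRF9, UBA7 and DHX58, and by rank IFIT1 (-0.64), IFIT5 (-0.59) and ISG15 (-0.69), all with an adjusted p of 1.00. The wide spread between sows is seen in the median member level per library, the median over members of log2(CPM + 1) minus the gene's median over its stage. At L11 it ran from -0.31 to 1.04 in C and from -0.68 to 1.39 in E, with medians of 0.04 and -0.01. At L11 it ran from -0.31 to 1.04 in subordinate, -0.33 to 1.39 in intermediate and -0.68 to 0.95 in dominant sows.

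**Figure D5:**
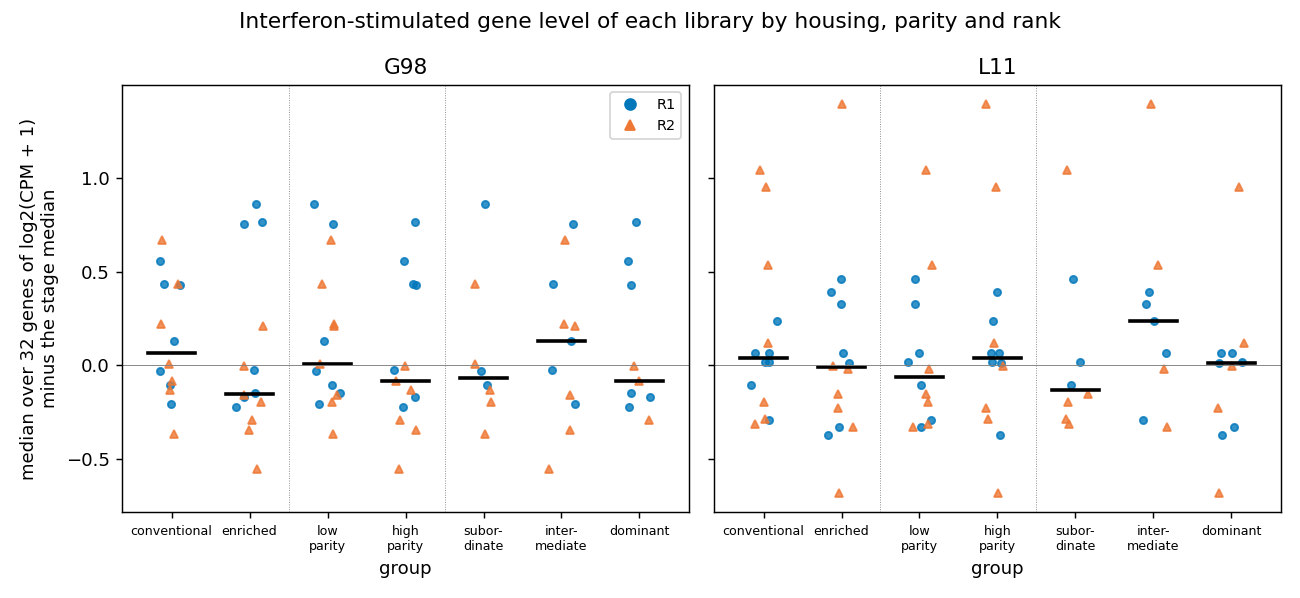
Median member level of each library (vertical axis, log2 units relative to the gene's median over its stage) by housing, parity and rank at G98 and L11, with circles for R1, triangles for R2 and a bar at the group's median. The groups overlap throughout, and the 3 highest points at L11, at 1.39, 1.04 and 0.955, are the R2 libraries of T91675, T619 and T82133.

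The rest of the interferon pathway was read from lists of ligands, receptors, signalling genes, sensors and further targets. Of 8 type I and III interferon genes 3 had a row. IFNB1 and IFNK had 0 counts in all 56 libraries, which allows up to 3 counts, or 0.119 to 0.166 CPM, in a library for counting error alone, and IFNE had at most 7 counts. None could be tested. IFNG, the type II interferon, had 0.341, 0.859 and 2.03 CPM at G98 in R1 and 0.658, 2.14 and 3.00 at L11. In R2 it had 0.643, 0.952 and 2.05 CPM and then 0.705, 1.61 and 2.77. It rose by 0.88 over the 26 pairs (SE 0.19, adjusted p = 0.000248), by 1.07 in R1 and by 0.65 in R2 (adjusted p = 0.0313). The summed level of the 10 measured cytotoxic and NK cell markers of 12 listed moved with it, from a median of 904 CPM at G98 to 1253 at L11 in R1 and from 953 to 1259 in R2, and their part in the result was not tested.

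Of the 5 receptor genes measured, 2 were higher and 1 lower at L11. This share, like those of the lists that follow, stands beside the 56.6% of all tested genes called for stage, 28.4% higher and 28.2% lower, and is no result about the list. IFNGR1, the ligand-binding chain of the interferon gamma receptor, rose by 0.59 (SE 0.09, adjusted p = 1.77e-06), IFNAR2 rose by 0.21 (adjusted p = 5.34e-06) and IFNAR1 fell by 0.22 (adjusted p = 0.0401). Between replicates at L11, IFNAR1 was lower in R2 by a log2 difference of -0.98. Of 12 JAK-STAT and feedback genes, 3 were higher and 5 lower at L11. JAK1, the kinase shared by both receptor types, changed by -0.37 (adjusted p = 2.01e-09), PTPN11 by -0.25 and IRF1 by 0.40 (adjusted p = 0.00165).

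Of 17 measured genes of nucleic acid sensing and interferon induction, 6 were higher and 3 lower, among them IRF8 (0.46), the DNA sensor CGAS (-0.37) and IRF3 (0.26). Among the further interferon-induced genes, 2 of 26 tested were higher and 8 lower at L11, with a list median of -0.11 against 0.0037 over all genes. CNP changed by -0.45 (adjusted p = 3.88e-11), TRIM26 by -0.43 and SAMHD1, which depletes nucleotides, by -0.37, while TRIM34 (0.30) and NMI (0.19) were the higher ones. Of 15 tested genes that lean to interferon gamma, 5 were higher and 1 lower, including the immunoproteasome subunits PSMB10 (0.27) and PSMB8 (0.16). In R2 alone 7 of these 15 were higher and 0 lower, where 24.9% of all tested genes were called higher and 23.4% lower. In the 6 comparisons of housing, parity and rank within a stage, edgeR called no gene of these pathway lists.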

How the data were processed

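PBMC RNA of 28 sows was sequenced at 2 stages, giving 56 libraries. NucleoSpin RNA and QIAseq Stranded mRNA kits were used, per the labels' protocols. The submitters' processing notes name Sscrofa11.1, R 4.1.2 and DESeq2. No source used here names the aligner, the quantifier or the annotation. The authors' files hold an estimated count and a TPM value per gene, per the file headers. The estimated counts (4.61% not whole) were rounded, and TPM served only to compare levels between genes. Symbols matched 14691 of 24358 identifiers. Coordinates are RefSeq gene spans on Sscrofa11.1, counted from 1.

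Tests used edgeR 4.0.16 in R 4.3.3 (TMM, filterByExpr on the factor tested, glmQLFit, glmQLFTest), 2-sided, with Benjamini-Hochberg adjustment over all tested genes and a threshold of 0.05. SE is the log2 change divided by the square root of F. The stage fit had a term for each pair of libraries of a sow. Replicate was adjusted for housing and parity, housing for parity, and parity and rank each for housing. These fits within a stage had no term for sow, so the second L11 libraries of T82133 and T82157 counted as separate animals. Same-sow libraries deviated together, with correlations of 0.134 to 0.624 over genes and 26 of 26 pairs above 0.1, and the pairing comes from the ear tags in the labels. Levels are TMM-scaled CPM over all libraries, and descriptive differences use log2(CPM + 1). The replicate number marks an experimental replicate per the design text. The scripts were tested on simulated data. Counting limits cover counting error only.

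The members and all lists were chosen with earlier results of these data known. Levels are given for called members, or for the 3 of smallest p where none was called, and of other lists for up to 3 called genes of smallest p. Alternatives were DESeq2 1.42.0, its size factors, filters, a threshold of 0.1, erythroid genes left out of library sizes, other covariates, fits without the sow pairing, within a replicate, with the replicate as a block, and with libraries left out. One gene of the signalling list is not reported here.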

Additional observations from a re-analysis of the deposited data

Results flagged for a closer look

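In 4 of 10 groups of sows the median member level of a library stood apart from the rest of its group by Dixon's ratio, in each case as the highest. This level is the median over the 32 members of log2(CPM + 1) minus the gene's median over its stage. For normally distributed values chance marks about 1 group in 20. The groups mix libraries of R1 and R2, so that rate is only a guide and gives no test here. Among dominant HP sows of E at G98 (5 libraries), T83410 was at 0.766 and the nearest at -0.0021. Among dominant HP sows of C at L11 (4 libraries), T82133 was at 0.955 and the nearest at 0.119. Among subordinate LP sows of C at L11 (5 libraries), T619 was at 1.04 and the nearest at 0.0151. Among all 9 intermediate sows at L11, T91675 was at 1.39 and the nearest at 0.538.

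The change from G98 to L11 differed between the experimental replicates for 6 members in the interaction term of the paired edgeR fit, which is 18.8% of the 32, where 20.1% of all tested genes were called. The R2 minus R1 difference on the log2 scale was 1.25 for ISG15, 1.27 for IFI6, 1.02 for IFIT5, 0.71 for BST2, 0.42 for IFI35 and -0.46 for DTX3L.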

How the results depend on the processing

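Over all alternatives, 8 of them chosen after the data were seen, the values of the genes named in each comparison stayed on their side of the threshold in 1222 cases, 3 of which changed sign without being called in either fit. A call was lost in 63 cases and gained in 2, and no called value changed sign. Where members were called in the main fit only those were followed, so a gain could be counted only in comparisons without a called member. Members called only in an alternative fit, such as MX2 for stage without T91675, are not among these cases. Of the counts of called genes, 654 stayed within 1.5 times and 63 did not. No setting moved the median change of all genes by more than 0.1. The members' median moved more in some. For rank at L11 it went from -0.15 to -0.50 with all 3 factors in the model, and for parity at L11 from 0.14 to 0.48. For housing at G98 it was 0.14 within R1 and -0.27 within R2. The main counts were 5 members higher and 2 lower for stage, 2 and 5 in R1, 8 and 1 in R2, and 5 and 1 for the difference between replicates. For stage the lower members were 4 at an adjusted p under 0.1, 8 without T91675, 10 without T91675 and T619, and 1 in the unpaired fit without the replicate block. In R2 they were 2 at 0.1, 5 without T91675 and 5 without both sows. For the difference between replicates they were 0 with no filter, 0 without T93220, 2 without T91675 and 2 without both. For R2 against R1 at L11, 7 were lower without T91675, and 2 were higher and 10 lower without T91675, T619 and T82133. T91675, T619 and T82133 were left out as highest for the members at L11, so more lower calls follow in part from that choice. For parity at G98, 2 were lower within R2 alone, where 817 of all genes were called. With the replicate block, the unpaired stage fit gave 5 higher and 2 lower, and housing, parity and rank gave 0 members. Over all genes the block moved the parity calls from 180 to 357 at G98 and from 22 to 37 at L11. Leaving out each sow in turn gave 5 to 6 higher and 2 to 8 lower for stage, 2 to 3 and 3 to 6 in R1, 7 to 10 and 1 to 5 in R2, and 4 to 6 and 0 to 2 for the difference between replicates. Except where fewer libraries or genes entered a fit, the cause was not tested. Depth limits OASL most, which had as few as 1 count in a library.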
